A study of Mus musculus with 22 samples.

Results

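Fibroblast and myofibroblast genes other than collagens were followed in mouse pancreatic tumors with and without microRNA-21. The group held 32 genes of the 53342 in the count tables. They were given as a named list, chosen with earlier results of these data known, and all 32 were found in the tables for tumors and for cell lines. They were sorted by role into 6 markers of resident fibroblasts, 10 general fibroblast genes, 7 genes of activated fibroblasts and 9 genes of the contractile apparatus. RNA came from 8 tumors labelled miR-21 knockout (KO), 4 wild-type (WT) tumors, 5 KO cancer cell lines and 5 WT lines, all of Bl6 background. The titles name a different animal for each tumor and each line, and 5 animals gave both.

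The series is titled as K-Ras-driven pancreatic cancer, and recombined K-Ras and p53 alleles were checked in the lines. Tumors were whole pieces of tissue, snap-frozen, so they hold stroma. Lines were grown from dissociated tumors and passaged until fibroblasts were lost. The labels give no age, no Cre driver and no statement of which cells lacked microRNA-21. Mir21a had 0 counts in all libraries, WT included, so the genotype labels could not be checked from these messenger RNA libraries. Depth was 24547650 to 31118113 counts per library. Levels are CPM, counts divided by the library total times its TMM factor, and a count of 0 allows up to 0.0964 to 0.122 CPM (3 counts, counting error only).

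Fibroblasts of the normal pancreas lie around ducts, vessels and acini and lay down connective tissue. In pancreatic cancer they multiply and become activated. Some turn into myofibroblasts, which carry actin and myosin like smooth muscle, and others secrete cytokines. Vessel walls, gut-type smooth muscle and pericytes express the same contractile genes, so in whole tissue these are not markers of fibroblasts alone. In bulk RNA, fewer cells of a type and less RNA per cell cannot be told apart. MicroRNA-21 lowers messenger RNAs that carry a match to its seed, bases 2 to 8, in the 3′ UTR.

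The mature microRNA and the matches to its seed in the members are shown to tell which members hold such a match. Other kinds of match and other 3′ UTRs of a gene were not searched, so a member without a match could still be bound. The longest annotated 3′ UTR of each gene was searched on the sense strand for ATAAGCT, the 7-base match, and for the same letters followed by A, the 8-base match. Only Postn and Sparc held the 7-base match, 2 of 32 members (6.25%), against 7.21% of 20952 genes. No member held the 8-base match, which 2.11% of all genes held. The microRNA lies on the minus strand at chr11:86584120-86584141 (RefSeq, GRCm38.p6), the Postn match on the plus strand at chr3:54390844-54390850 and the Sparc match on the minus strand at chr11:55395283-55395289 (GENCODE, mm10). Capitals mark the seed and its match.
mmu-miR-21a-5p: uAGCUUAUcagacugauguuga
Postn 3′ UTR: agatgattgtcATAAGCTtcttgcaataca
Sparc 3′ UTR: aacggagttgcATAAGCTcaccgtccacaa

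KO tumors were set against WT tumors to ask what the stroma looks like without microRNA-21. In edgeR's quasi-likelihood test with Benjamini-Hochberg adjustment over 18125 genes, 0 of 32 members passed an adjusted p of 0.05, higher (0.011% of all genes tested) or lower (0% of all genes). At an unadjusted p under 0.05, 6 members were higher, against 8.34% of all genes, and 1 was lower, against 8.39% of all genes. These were Pi16, Sparcl1, Pdgfra, Thy1, Pdpn and Dcn on the higher side and Fap on the lower. DESeq2 gave 5 of 30 members with an adjusted p as higher (3.03% of all genes), the same genes without Sparcl1, and 1 of 30, Fap, as lower (1.84% of all genes). Limma-voom gave 0 of 32 in either direction (0.0221% of all genes higher, 0% lower). The KO calls of the members therefore depended on the test used. Without KO tumor 2 edgeR passed 2 members as higher (0.388% of all genes), Pi16 at an adjusted p of 0.036 and Thy1 at 0.04, and none lower (0.0665% of all genes).

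Errors of fold changes below are SE and those of mean CPM are SD. By role, the log2 fold changes in tumors had a median of 1.26 for the 6 resident markers, 0.74 for the 10 general genes, 0.17 for the 7 activation genes and 0.36 for the 9 contractile genes, beside 0.01 over all genes tested. The activation median turned to -0.33 with DESeq2, -0.35 with limma-voom and -0.33 without KO tumor 6, and the resident median was 0.71 with limma-voom. Positive values were seen for 5 of 6 resident, 10 of 10 general, 4 of 7 activation and 7 of 9 contractile members. No member had every KO tumor on 1 side of every WT tumor, an order that 1.12% of all genes showed with KO higher and 0.789% with KO lower.

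**Figure D1:**
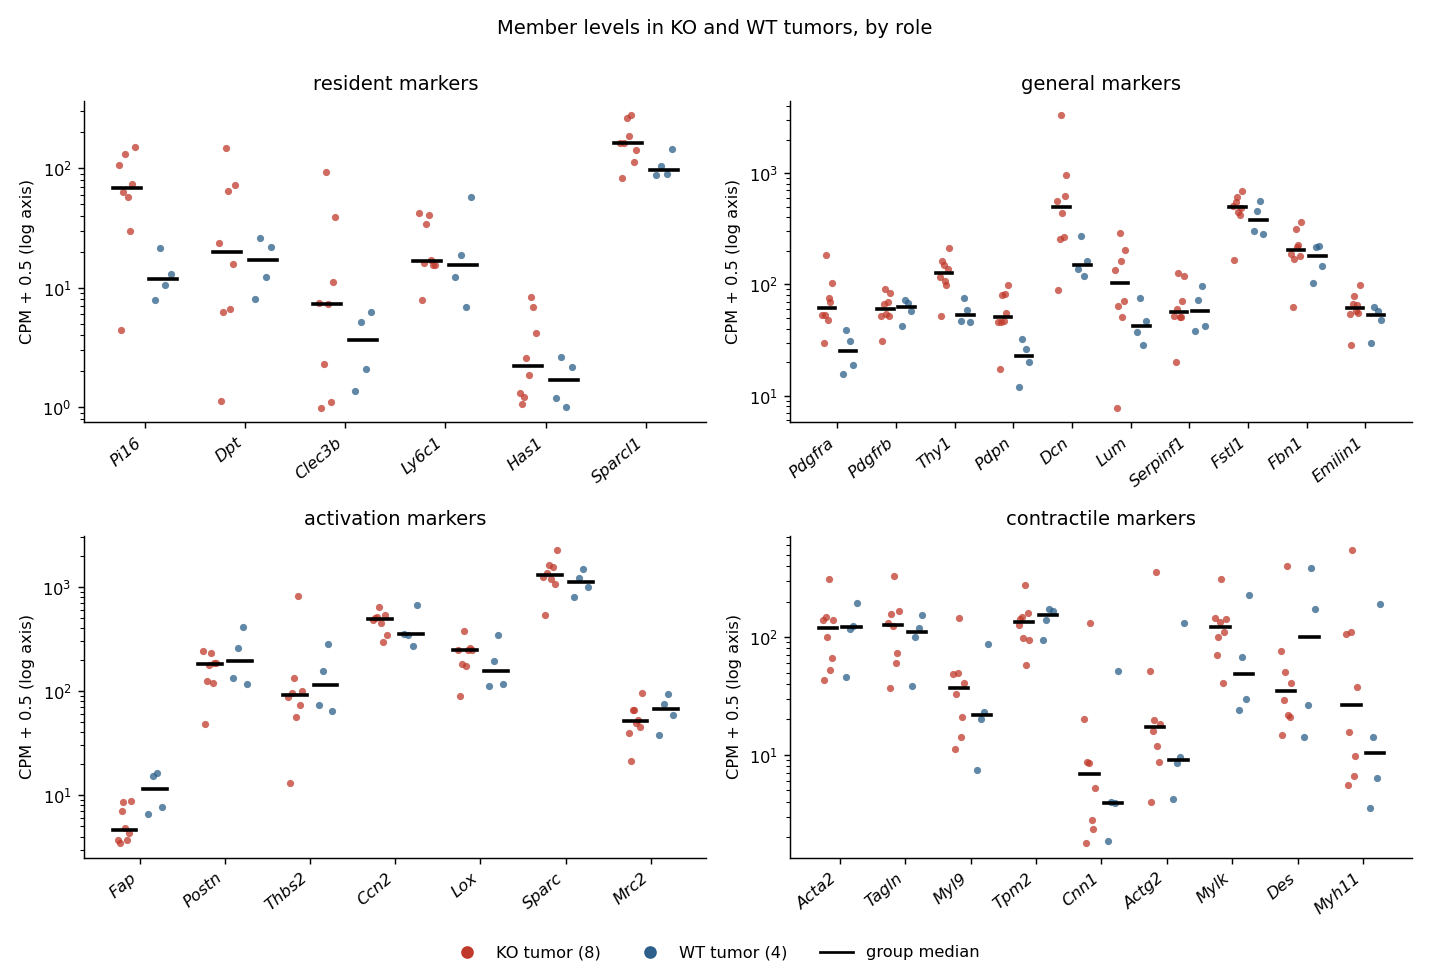
CPM + 0.5 (log axis) of all 32 members in each of 8 KO and 4 WT tumors, in 4 panels by role; points are tumors and black bars are group medians. Pi16, Pdgfra, Thy1 and Pdpn have KO medians of 68.0, 60.8, 127 and 50.5 CPM against WT medians of 11.3, 24.4, 52.4 and 22.5 CPM, with points of the groups overlapping.

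Among resident markers, Pi16, a peptidase inhibitor that marks fibroblasts of vessel sheaths, had a lowest value of 3.90 CPM, a median of 68.0 and a highest of 152 CPM in KO tumors, against 7.46, 21.0, 10.1 and 12.5 CPM in WT tumors. Of the 8 KO tumors, 7 stood above every WT tumor and KO tumor 2 stood below them all. Its log2 fold change was 2.56 ± 0.71 (SE; KO 77.1 ± 50.3, WT 12.8 ± 5.88 CPM, SD, n = 8 and 4), with an adjusted p of 0.147 by edgeR and 0.00309 by DESeq2.

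Clec3b, which encodes the plasminogen-binding protein tetranectin, ran from 0.487 over a median of 6.86 up to 93.7 CPM in KO tumors, against 0.875, 4.64, 1.60 and 5.72 CPM in WT tumors. Its fold change was of the same size, 2.60, but with an SE of 1.33 and an adjusted p of 0.347 by edgeR. KO tumors 4 and 8 carried it, at 93.7 and 38.9 CPM, and the other KO tumors lay at or under 10.8 CPM. Dpt, the matrix protein dermatopontin found in fibroblasts of many organs, ran from 0.626 over 19.3 to 148 CPM in KO tumors, against 7.60, 25.4, 11.8 and 21.7 CPM in WT tumors. Its KO values enclosed all WT values, and the log2 fold change of 1.29 ± 1.03 had an adjusted p of 0.554 by edgeR. It was 0.64 without KO tumor 4 and 0.11 with limma-voom.

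Sparcl1, a secreted relative of Sparc, varied least among the resident markers relative to its mean. It had 82.8 as the lowest, 164 as the median and 279 CPM as the highest value in KO tumors, against 88.2, 105, 88.8 and 146 CPM in WT tumors. The log2 fold change was 0.68 ± 0.30 with an adjusted p of 0.279 by edgeR. Has1, a hyaluronan synthase, stayed low at 0.557 to 7.89 CPM in KO tumors, against 0.513 to 2.12 CPM in WT tumors.

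Ly6c1, a surface protein of endothelium and of some fibroblasts in mouse pancreatic tumors, had 7.45 to 41.5 CPM in KO tumors, against 11.8, 18.4, 6.35 and 57.1 CPM in WT tumors. The estimate (log2, KO over WT) was -0.04 ± 0.56, the only negative value among resident markers. It turned to 0.91 without WT tumor 4. Its close copy Ly6c2 had 0.171 to 8.44 CPM in KO tumors, against 0.756 to 6.13 CPM in WT tumors, and how the authors counted reads that match both is not given in the sources used here.

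Among general fibroblast genes, the receptor Pdgfra and the surface proteins Thy1 and Pdpn had the firmest differences. Pdgfra, the receptor for platelet-derived growth factor on fibroblasts, ran from 29.2 over 60.8 to 183 CPM in KO tumors, against 15.2, 38.1, 30.6 and 18.3 CPM in WT tumors. KO tumor 2 was the only KO tumor below the highest WT tumor. The log2 fold change was 1.55 ± 0.45, with an adjusted p of 0.148 by edgeR and 0.0125 by DESeq2.

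Thy1, a glycoprotein anchored in the fibroblast membrane, ran from 51.7 over 127 to 214 CPM in KO tumors, against 46.2, 75.2, 58.6 and 45.4 CPM in WT tumors. Again 7 KO tumors exceeded all WT tumors. Its log2 fold change of 1.16 ± 0.29 had an adjusted p of 0.139 by edgeR and 0.00618 by DESeq2. Pdpn, or podoplanin, a mucin-like membrane protein of fibroblasts and lymphatic vessels, ran from 16.9 over 50.5 to 98.8 CPM in KO tumors, against 11.5, 31.6, 25.5 and 19.4 CPM in WT tumors. Its log2 fold change was 1.39 ± 0.40, with an adjusted p of 0.148 by edgeR and 0.015 by DESeq2.

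The small leucine-rich proteoglycans Dcn (decorin) and Lum (lumican), which bind collagen fibrils, varied far more between KO tumors. Dcn ran from 88.3 over 498 to 3313 CPM in KO tumors, against 136, 270, 119 and 162 CPM in WT tumors. KO tumor 4 alone held 3313 CPM, and KO tumor 8 came next with 955 CPM. The estimate (log2, KO over WT) was 2.21 ± 0.82, with an adjusted p of 0.221 by edgeR and 0.035 by DESeq2. Lum ran from 7.27 over 102 to 286 CPM in KO tumors, against 36.8, 74.5, 27.8 and 46.6 CPM in WT tumors, a log2 fold change of 1.36 ± 0.69 (adjusted p 0.339 by edgeR).

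The other 5 general genes differed little between group means. Pdgfrb, the second receptor of this growth factor family and a marker of pericytes as well as fibroblasts, had a log2 fold change of 0.02 ± 0.24, with 30.3 to 89.5 CPM in KO tumors, against 42.0 to 72.4 CPM in WT tumors. Serpinf1, an inhibitor of vessel growth, stood at 0.10 ± 0.41. Fstl1, a secreted glycoprotein, stood at 0.24 ± 0.30, Fbn1 (fibrillin, the core of microfibrils) at 0.29 ± 0.36 and Emilin1, a glycoprotein of elastic fibres, at 0.32 ± 0.27. Their adjusted p values by edgeR lay between 0.576 and 0.975. Fstl1, the most abundant of them per length of exon, had 167 to 695 CPM in KO tumors, against 281 to 557 CPM in WT tumors. Fbn1 had 61.8 to 363 CPM in KO tumors, against 102 to 220 CPM in WT tumors. In all of them the lowest tumor was KO tumor 2, and the KO range enclosed the WT range.

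**Figure D2:**
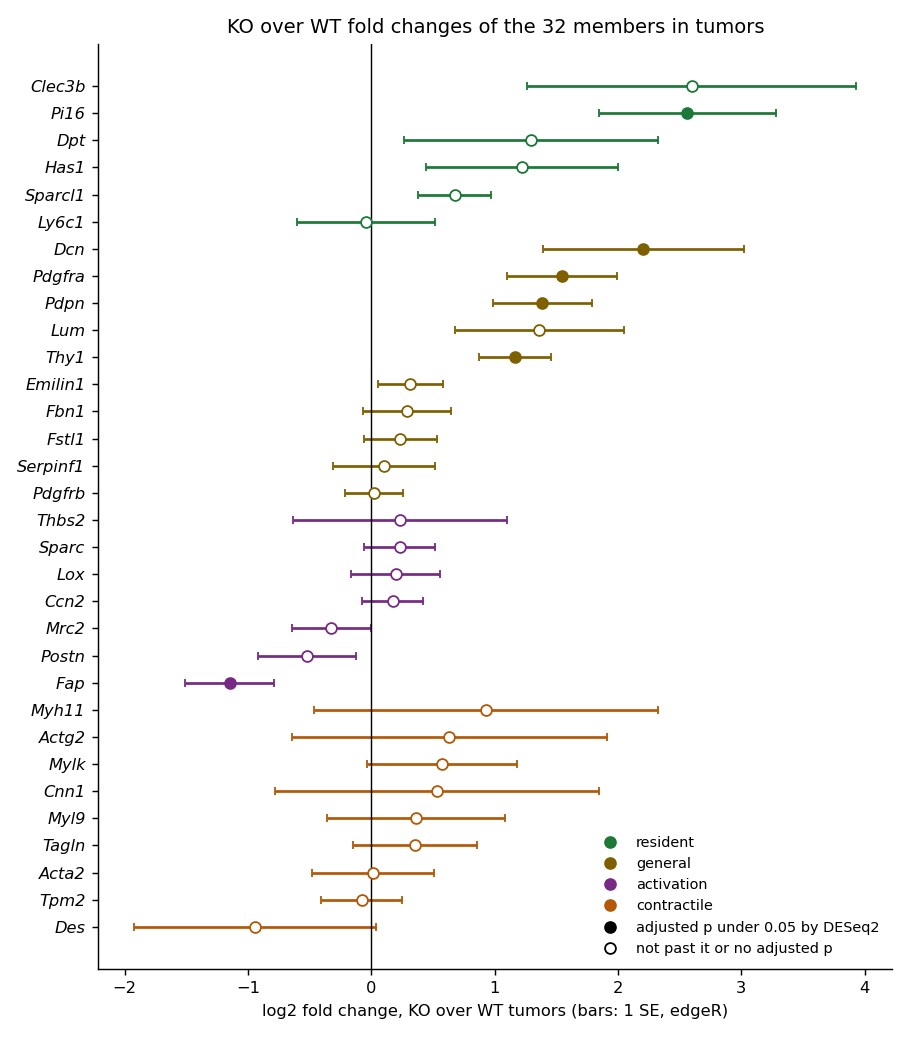
Log2 fold changes, KO over WT tumors, of the 32 members, grouped by role; bars are 1 SE of the edgeR fit and filled points passed an adjusted p of 0.05 with DESeq2. Resident and general genes reach 2.60 and 2.21, activation genes lie between -1.15 and 0.24, and contractile genes have wide bars around values of -0.94 to 0.93.

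Among activation genes, Fap stood apart. Fap, a membrane serine protease that defines activated stromal fibroblasts, ran from 2.96 over 4.09 to 8.37 CPM in KO tumors, against 6.02, 14.8, 15.8 and 7.16 CPM in WT tumors. Only KO tumors 3, 4 and 8, at 6.57, 8.19 and 8.37 CPM, stood above the lowest WT tumor. The log2 fold change was -1.15 ± 0.36, with an adjusted p of 0.176 by edgeR and 0.0465 by DESeq2. Over all alternatives tried it lay between -1.63 and -0.89.

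Postn (periostin), a matrix protein of activated fibroblasts with a seed match above, ran from 47.5 over 181 to 243 CPM in KO tumors, against 132, 259, 409 and 116 CPM in WT tumors. Its log2 fold change was -0.52 ± 0.40, with an adjusted p of 0.533 by edgeR. Sparc, the other member with a match and a collagen-binding matrix protein, ran from 533 over 1301 to 2243 CPM in KO tumors, against 803, 1232, 1475 and 995 CPM in WT tumors, a log2 fold change of 0.23 ± 0.29. The values of both genes overlapped widely between genotypes.

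Lox, the enzyme that cross-links collagen and elastin, stood at a log2 fold change of 0.20 ± 0.36, and Mrc2, a receptor that takes up collagen, at -0.32 ± 0.32. Ccn2, a matrix-associated growth regulator also made by epithelial cancer cells, stood at 0.17 ± 0.25. Their values overlapped between genotypes, with 88.3 to 375 CPM for Lox in KO tumors, against 112 to 347 CPM in WT tumors. Thbs2, a thrombospondin that restrains vessel growth, had 12.5 as the lowest, 91.1 as the median and 817 CPM as the highest value in KO tumors, against 72.4, 155, 283 and 63.8 CPM in WT tumors. The value of 817 CPM belonged to KO tumor 6 alone. The sum of 8 pericyte markers was also highest there, at 755 CPM, of which Rgs5 alone gave 661 CPM. Ndufa4l2, also in that sum, was highest in KO tumor 6 too, at 12.0 CPM against at most 9.97 CPM in the other tumors. Abcc9 and Cspg4, at 31.2 and 12.7 CPM, were within the range of the other tumors, and Higd1b, at 0.433 CPM, was below it. These single markers, and those of fat and smooth muscle below, were named after their values were seen. Without KO tumor 6 the log2 fold change of Thbs2 was -0.90 in place of 0.24.

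Seen against each other within a tumor, Fap and the receptor genes separated the genotypes, a pattern picked out after the values were seen and given here without a test. The ratio of Pdgfra to Fap counts was 8.06 to 23.4 in KO tumors, against 2.52, 2.57, 1.94 and 2.55 in WT tumors. For Thy1 to Fap it was 17.5 to 36.8 in KO tumors, against 7.67, 5.08, 3.70 and 6.34 in WT tumors, and for Pdpn to Fap 5.72 to 25.7 in KO tumors, against 1.91, 2.14, 1.61 and 2.70 in WT tumors. All 3 ratios were higher in every KO tumor than in every WT tumor, KO tumor 2 included.

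The ratio of Fap to another gene was lower in every KO tumor than in every WT tumor for 9 of the 31 other members, beside 11.8% of the 18124 other genes tested. These 9 were Pdgfra, Thy1, Pdpn, Dcn, Pdgfrb, Emilin1, Fstl1, Lox and Sparc. For Pdgfra the ratio was higher in every KO tumor for 10 of 31 members, beside 13.4% of other genes. One of these was the sister receptor: Pdgfra to Pdgfrb was 0.80 to 2.04 in KO tumors, against 0.36, 0.53, 0.46 and 0.32 in WT tumors. Ratios are compared between tumors for 1 pair of genes and do not rank the genes' levels.

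**Figure D3:**
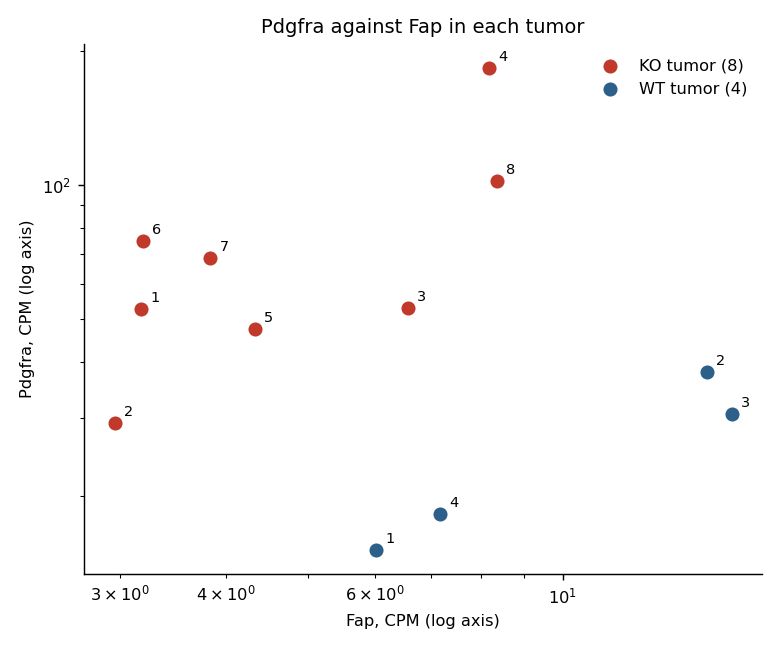
Pdgfra against Fap in CPM (both axes log), 1 point for each of 8 KO and 4 WT tumors, with replicate numbers beside the points. KO tumors lie above WT tumors at a given Fap level, with Pdgfra to Fap ratios of 8.06 to 23.4 in KO tumors, against 1.94 to 2.57 in WT tumors.

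In the contractile group single tumors ranged widely within both genotypes. Smooth muscle actin Acta2 had 42.7 as the lowest, 119 as the median and 311 CPM as the highest value in KO tumors, against 45.02, 117, 125 and 195 CPM in WT tumors. The estimate (log2, KO over WT) was 0.01 ± 0.49, so its error spans changes of either sign. Tagln (transgelin, an actin-binding protein) stood at 0.35 ± 0.50, Myl9 (a regulatory myosin light chain) at 0.36 ± 0.72, Mylk (the kinase that activates it) at 0.57 ± 0.61 and Tpm2 (a tropomyosin) at -0.08 ± 0.33. Myl9 had 10.8 to 145 CPM in KO tumors, against 6.97 to 87.2 CPM in WT tumors, and Mylk 40.3 to 309 CPM in KO tumors, against 23.5 to 226 CPM in WT tumors. The smallest adjusted p of the 9 contractile members was 0.664 by edgeR.

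The genes of mature smooth muscle varied most. Myh11, the smooth muscle myosin heavy chain, ran from 5.05 over 26.2 to 542 CPM in KO tumors, against 3.05, 13.8, 5.90 and 190 CPM in WT tumors. Actg2, the actin of gut-type smooth muscle, ran from 3.48 over 16.6 to 355 CPM in KO tumors, against 3.71, 8.11, 9.13 and 131 CPM in WT tumors. Cnn1 (calponin) ran from 1.29 over 6.38 to 131 CPM in KO tumors, against 1.37, 3.50, 3.40 and 51.1 CPM in WT tumors. In each case KO tumor 5 was the highest KO tumor and WT tumor 4 the highest WT tumor. KO tumor 5 held the highest value of all 12 tumors for 9 of 9 contractile members.

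Their log2 fold changes were 0.93 ± 1.39 for Myh11, 0.63 ± 1.28 for Actg2 and 0.53 ± 1.31 for Cnn1, and 1 tumor decided the sign. Without KO tumor 5 they were -0.40, -1.09 and -1.20, and without WT tumor 4 they were 3.76, 3.08 and 2.97. With both left out, a setting chosen after the data were seen, they were 2.43, 1.35 and 1.24, and none passed the threshold. Across the role, the median fold change lay between -0.33 and 1.41 when 1 tumor was left out.

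Des (desmin), an intermediate filament of smooth and skeletal muscle and of pancreatic stellate cells, ran from 14.3 over 34.5 to 402 CPM in KO tumors, against 13.7, 26.2, 386 and 173 CPM in WT tumors. The 386 CPM belonged to WT tumor 3, which was not high in Myh11, Actg2 or Cnn1. In that tumor the 10 skeletal muscle markers summed to 1463 CPM, against 12.3 to 71.1 CPM in the other 11 tumors, and the part of skeletal muscle in its Des value was not tested. Without WT tumor 3 the log2 fold change of Des was 0.17 in place of -0.94.

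**Figure D4:**
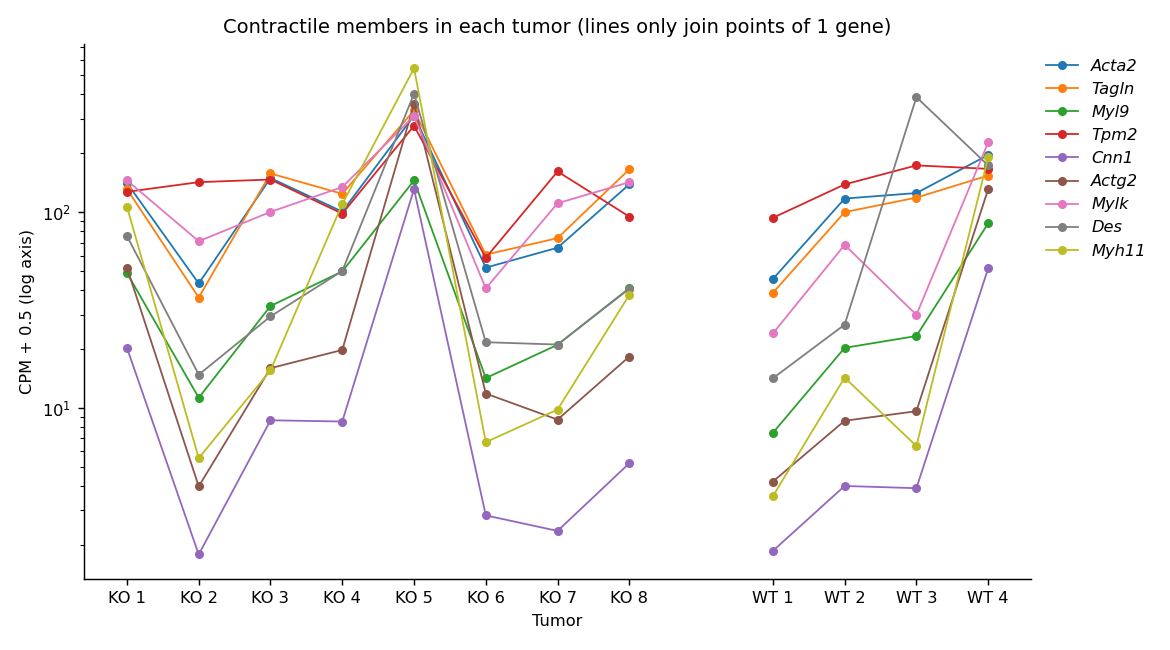
CPM + 0.5 (log axis) of the 9 contractile members in KO tumors 1 to 8 and WT tumors 1 to 4; lines join the points of 1 gene only to guide the eye. All 9 genes peak in KO tumor 5 among KO tumors, and Myh11, Actg2 and Cnn1 also peak in WT tumor 4, while WT tumor 3 stands out in Des with 386 CPM.

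Many contractile genes are driven by serum response factor, which binds the CArG box, and the promoters of the contractile members that held the box are shown. Of 19 members with a RefSeq promoter (GRCm38.p6, 250 bases before to 50 after the start), 1 held an exact box on either strand, Myl9, and 3 held a box with at most 1 mismatch, Acta2, Myl9 and Serpinf1. Among contractile members these were 1 and 2 of 6. Of all 27025 genes with a promoter searched, 1.81% held an exact box and 11.3% one with at most 1 mismatch. The Acta2 promoter (minus strand, chr19:34255324-34255623) and the Myl9 promoter (plus strand, chr2:156775214-156775513) follow, with boxes in capitals. In Acta2 they start 84 and 34 bases before the transcript start, and in Myl9 161 (exact) and 99 bases before it. Smooth muscle actin is known for boxes that depart from the exact motif.
Acta2 promoter: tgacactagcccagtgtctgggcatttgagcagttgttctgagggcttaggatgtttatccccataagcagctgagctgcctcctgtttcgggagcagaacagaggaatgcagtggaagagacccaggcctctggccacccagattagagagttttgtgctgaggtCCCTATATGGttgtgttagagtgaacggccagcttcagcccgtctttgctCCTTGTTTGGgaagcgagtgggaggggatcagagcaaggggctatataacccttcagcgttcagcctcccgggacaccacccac
Myl9 promoter: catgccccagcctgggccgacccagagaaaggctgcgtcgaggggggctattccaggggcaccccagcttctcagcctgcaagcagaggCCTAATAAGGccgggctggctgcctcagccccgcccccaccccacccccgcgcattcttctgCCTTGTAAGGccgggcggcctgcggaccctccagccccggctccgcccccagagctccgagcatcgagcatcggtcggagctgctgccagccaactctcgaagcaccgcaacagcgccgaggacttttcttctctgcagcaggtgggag
A match is a description of letters, and these counts are few.

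Some tumors stood apart in many members, though not always in every role. KO tumor 2 had the lowest value of all 12 tumors for 21 of the 32 members. How often each tumor was lowest or highest over all genes was not counted. KO tumors 4 and 8 each had the highest value for 8 members, 7 and 6 of these being resident or general genes, and KO tumor 5 for 9. In KO tumors 4 and 8 the 6 resident markers stood at a median of 1.36 and 1.47 (log2) above their level in the median tumor, and in KO tumor 2 at -1.79. KO tumor 2 was also low in general (-1.45), activation (-1.31) and contractile genes (-1.36). In KO tumor 5 the contractile genes stood at 2.38, but the general genes at 0.01 and the activation genes at -0.17.

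Markers of other cells moved with these tumors. The sum of 13 acinar enzymes and factors, led by Ctrb1 and Prss2, was 28.6 to 2756 CPM in KO tumors (median 394) and 15.4, 71.1, 23.2 and 517 CPM in WT tumors. Its highest values were 2756 CPM in KO tumor 4 and 1242 CPM in KO tumor 8, the tumors that were high in Dcn, Clec3b and Dpt. Without these and WT tumor 4, a setting chosen after the data were seen, the median log2 fold change was 0.91 for resident and 0.45 for general genes. Under it Pi16 stood at 2.10, Pdgfra at 0.94, Thy1 at 0.88, Pdpn at 1.07, Dcn at 1.08, Dpt at 0.34 and Fap at -1.63, and 0 members passed.

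The sum of 10 epithelial markers, led by Krt18 and Krt8, was 4066 to 8704 CPM in KO tumors (median 6653) and 11542, 6803, 10479 and 14279.5 CPM in WT tumors. Of the 8 KO tumors, 4 lay below every WT tumor. Macrophage markers (8 genes, led by Lyz2 and C1qa) summed to 662 to 3367 CPM in KO tumors, against 1038 to 2149 CPM in WT tumors, with the lowest sum in KO tumor 2 and the highest in KO tumors 8 and 4. The part of either in the member values was not tested.

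The other lists overlapped between genotypes. Endothelial markers (8 genes, led by Pecam1 and Cdh5) summed to 159 to 595 CPM in KO tumors, against 199 to 409 CPM in WT tumors. Pericyte markers (8, led by Rgs5 and Abcc9) summed to 121 to 755 CPM in KO tumors, against 117 to 274 CPM in WT tumors. Adipocyte markers (8, led by Pnpla2 and Lipe) summed to 59.0 to 202 CPM in KO tumors, against 107 to 133 CPM in WT tumors. Cancer cell lines also express Pnpla2, at 51.1 to 121 CPM. Adipoq, made by fat cells, had 12.8 and 20.01 CPM in KO tumors 4 and 8, where Dcn, Clec3b and Dpt were high. The other KO tumors had at most 0.427 CPM, against 0.350, 9.76, 9.10 and 5.26 CPM in WT tumors. Plin1 had 2.50 and 13.9 CPM in KO tumors 4 and 8, against 0.035, 4.58, 2.66 and 2.41 CPM in WT tumors. Retn had 3.54 and 7.57 CPM in these KO tumors, against 0.105, 3.53, 3.91 and 2.48 CPM in WT tumors. For both genes KO tumor 4 was thus within the WT range. Cidec, of the same list, was highest in WT tumor 3 at 18.7 CPM, with 11.1 and 17.4 CPM in KO tumors 4 and 8. Lep had 0 and 1.91 CPM in KO tumors 4 and 8. The part of fat cells in the member values was not tested. None of these marker genes was at 0 in a whole genotype of tumors. The mesothelial sum (8, led by Msln and Wt1) was 324 to 2180 CPM in KO tumors, against 388 to 1028 CPM in WT tumors, and the visceral smooth muscle sum (8, led by Npnt and Smtn) was 165 to 617 CPM in KO tumors, against 199 to 824 CPM in WT tumors. Both sums reached similar levels in cell lines, up to 1569 and 895 CPM. Npnt carried the smooth muscle sum in both, with 262 to 837 CPM in lines and 232 CPM of the 439 CPM in KO tumor 5. Of the same list, Synm, Lmod1 and Casq2 were highest in KO tumor 5, at 112, 16.7 and 5.65 CPM. The other tumors had at most 45.8, 10.5 and 3.78 CPM of these genes. The rest of the list did not peak in KO tumor 5. Smtn, Rbpms2 and Hhip were highest in KO tumor 6, Ldb3 in WT tumor 3 and Npnt in WT tumor 1. The sum in KO tumor 5 was below that in KO tumors 2 and 6 and WT tumors 1, 3 and 4. Synpo2, a further actin-binding protein of smooth muscle, had 100.4 CPM in KO tumor 5 and at most 35.2 CPM in the other tumors. The part of smooth muscle cells in the contractile values of KO tumor 5 was not tested.

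Genes that act beside the members were read from further lists, and 0 genes of any list passed an adjusted p of 0.05 by edgeR in tumors. Of 12 further resident fibroblast genes, 9 had positive log2 fold changes, with a median of 1.05, and 3 were higher and none lower at an unadjusted p under 0.05 (8.34% of all genes were higher and 8.39% lower). Fbln1, a basement membrane and elastic fibre protein, averaged 65.7 ± 27.0 CPM in KO tumors and 26.5 ± 10.3 CPM in WT tumors (SD, n = 8 and 4), a log2 fold change of 1.28 ± 0.35 (adjusted p 0.147 by edgeR). Igf1, the growth factor, stood at 1.26 ± 0.40, Cygb, the globin of stellate cells, at 1.60 ± 0.58 and Cd34, a surface sialomucin, at 0.51 ± 0.26. Cygb was highest in KO tumors 4 and 8, at 286 and 146 CPM, against at most 115 CPM in the other tumors. DESeq2 passed Fbln1, Igf1 and Cygb, 3 of the 12 (3.03% of all genes were higher). Fbln1 was also abundant in the cancer cell lines, at 34.0 to 178 CPM, against 13.5 to 38.5 CPM in WT tumors. Igf1, Cygb and Cd34 had at most 3.70, 0.111 and 4.72 CPM in lines. The part of cancer cells in the Fbln1 values of tumors was not tested.

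Among 12 transcription factors of mesenchyme, 8 were positive, with a median of 0.65, and 4 were higher (8.34% of all genes) and 1 lower (8.39% of all genes) at an unadjusted p under 0.05. Osr2, a zinc finger factor, averaged 3.37 ± 2.53 CPM in KO tumors and 0.358 ± 0.235 CPM in WT tumors, a log2 fold change of 3.19 ± 0.81 (adjusted p 0.139 by edgeR) and 0.00108 by DESeq2. Its relative Osr1 stood at 1.84 ± 0.72 and Tcf21, a factor of visceral fibroblast progenitors, at 2.15 ± 0.67. Twist1, which drives mesenchymal programs, had the opposite sign, with 9.73 ± 7.06 CPM in KO tumors and 27.7 ± 16.2 CPM in WT tumors, a log2 fold change of -1.53 ± 0.57 (adjusted p 0.221 by edgeR).

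In 25 further matrix genes without collagens, 17 were positive, with a median of 0.34, and 5 were higher and 1 lower at an unadjusted p under 0.05, beside 8.34% and 8.39% of all genes. Efemp1, a fibulin, averaged 85.6 ± 44.0 CPM in KO tumors and 28.9 ± 2.03 CPM in WT tumors. Its log2 fold change was 1.54 ± 0.39, with an adjusted p of 0.139 by edgeR and 0.00459 by DESeq2. Efemp1 was also abundant in cancer cell lines, at 69.7 to 173 CPM in KO lines and 15.4 to 159 CPM in WT lines. The part of cancer cells in its tumor values was not tested. Prelp and Fmod, proteoglycans of the decorin family, stood at 2.19 ± 0.61 and 2.98 ± 0.88, and Ccn4, a relative of Ccn2, at 0.97 ± 0.31.

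Of 12 genes of inflammatory fibroblasts, 3 were positive and 9 negative, with a median of -0.18, and 1 was higher (8.34% of all genes) and 1 lower (8.39%) at an unadjusted p under 0.05. Has2, the main hyaluronan synthase, averaged 9.34 ± 5.79 CPM in KO tumors and 41.0 ± 22.9 CPM in WT tumors. The estimate (log2, KO over WT) was -2.17 ± 0.54, with an adjusted p of 0.139 by edgeR and 0.00672 by DESeq2. Complement C3 stood at 1.64 ± 0.62, C7 at 2.96 ± 1.48 and the cytokine Lif at -0.74 ± 0.34. KO tumor 4 held 3952 CPM of C3 and 85.1 CPM of C7, and KO tumor 8 came next with 2280 and 15.5 CPM. The other KO tumors had at most 1391 and 9.63 CPM, against at most 843 and 5.08 CPM in WT tumors. In lines Lif had 15.0 to 33.5 CPM, C3 0.345 to 265 CPM, Has2 at most 2.52 CPM and C7 0 CPM.

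In 14 further contractile genes, 7 were positive and 7 negative, with a median of 0.07, and 2 were higher and 1 lower at an unadjusted p under 0.05, against 8.34% higher and 8.39% lower of all genes. Mrtfa, the cofactor that carries actin signals to serum response factor, averaged 57.6 ± 9.55 CPM in KO tumors and 82.3 ± 9.94 CPM in WT tumors. Its log2 fold change was -0.54 ± 0.15, with an adjusted p of 0.147 by edgeR and 0.035 by DESeq2. Itga8, an integrin of smooth muscle and stellate cells, stood at 1.899 ± 0.60, Myocd, the cofactor of smooth muscle, at 1.78 ± 0.76 and Smtn (smoothelin) at -0.77 ± 0.39. Myocd was low, with 0.168 to 0.504 CPM in WT tumors. Among KO tumors it had 3.05 CPM in KO tumor 5 and 0.133 to 1.16 CPM in the others. Mrtfa and Smtn were also abundant in lines, at 52.7 to 108 and 28.0 to 71.3 CPM. Itga8 and Myocd had at most 0.322 and 0.192 CPM there.

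The cell lines served as the background of cancer cells without stroma. Tumors exceeded lines in 29 of 32 members by edgeR at an adjusted p of 0.05, against 38.5% of 18662 genes, and 0 members were lower (27% of all genes). Every tumor stood above every line for 28 members. In 17 members no line reached 1 CPM. Neither count was taken over all genes, so how far they exceed the share of other genes is not known. Dcn, Lum and Dpt had 0 counts in all 10 lines. Against the limit of 3 counts over all lines together, their tumor means of 599, 97.0 and 33.5 CPM were at least 51410-fold, 8326-fold and 2872-fold higher.

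**Figure D5:**
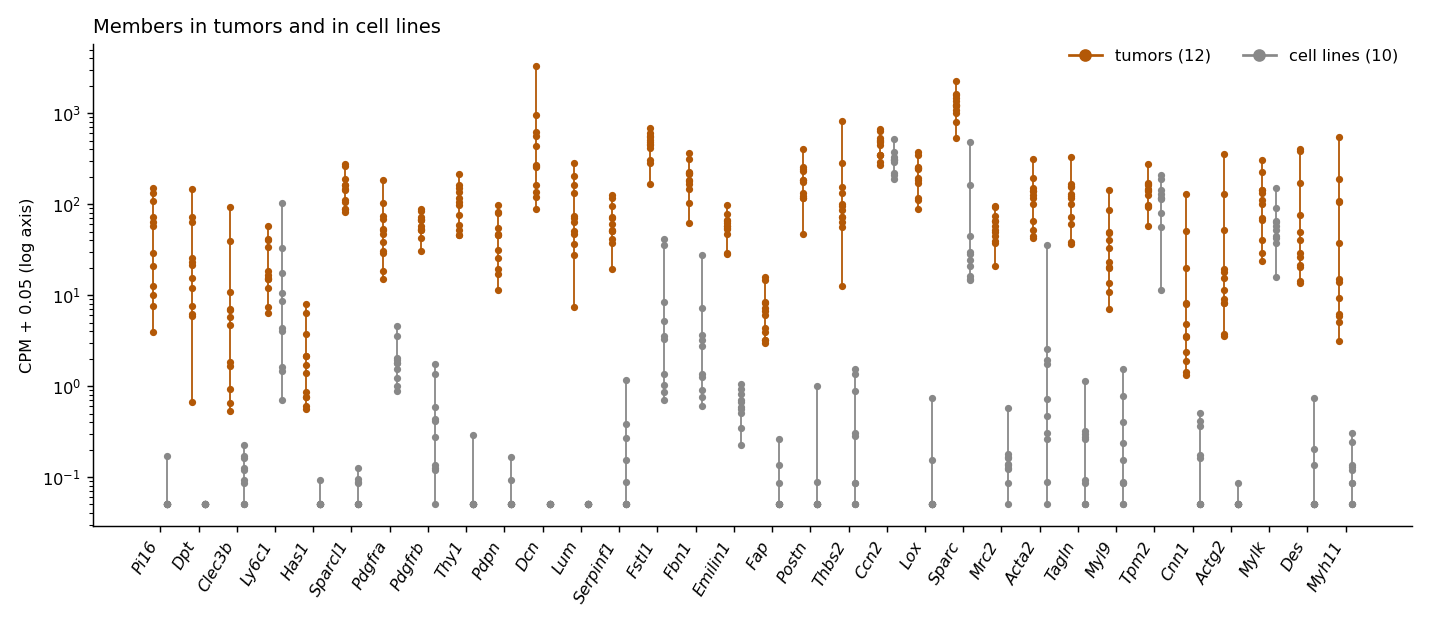
CPM + 0.05 (log axis) of the 32 members in 12 tumors and 10 cell lines; points are libraries and lines span the lowest to the highest. Ccn2, Tpm2, Mylk and Ly6c1 overlap between tumors and lines, while Dcn, Lum and Dpt have 0 counts in every line.

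Ccn2, Tpm2, Mylk and Ly6c1 were also abundant in the cancer cell lines. Ccn2 averaged 450 ± 129 CPM in tumors and 306 ± 94.7 CPM in lines (SD, n = 12 and 10), and it was higher in tumors by a log2 fold change of 0.52 ± 0.19 (adjusted p 0.0181 by edgeR). Tpm2 averaged 139 ± 55.2 CPM in tumors and 116 ± 57.9 CPM in lines, with an adjusted p of 0.491 by edgeR. Mylk averaged 116 ± 84.1 CPM in tumors and 62.0 ± 36.5 CPM in lines, with an adjusted p of 0.0995 by edgeR and 0.0427 by DESeq2. For Ly6c1 the means were 23.2 ± 15.9 CPM in tumors and 18.5 ± 31.4 CPM in lines, with an adjusted p of 0.214 by edgeR, 0.0498 by limma-voom and 0.0467 by limma-voom with the animal as a block.

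Scaled to the length of the annotated exons, Sparc was the most abundant member in tumors at 338 CPM per kilobase, against 22.1 in lines. Ccn2 followed with 157 CPM per kilobase in tumors and 107 in lines, Dcn with 103 in tumors and 0 in lines, and Fstl1 with 92.8 in tumors and 2.05 in lines. The lowest were Fap at 1.24 and Has1 at 0.524 CPM per kilobase in tumors. Tagln overlaps Pcsk7 on the opposite strand, and whether counting used strand is not given in the sources used here. Tagln stayed at or under 1.09 CPM in every line, while Pcsk7 had 20.2 to 56.5 CPM there.

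Between KO and WT lines, 10 members passed the filter on low counts and 0 of them passed an adjusted p of 0.05, higher (0.0143% of 14020 genes) or lower (0% of all genes). Neither did any with DESeq2 (8 members with an adjusted p; 0.25% of all genes higher and 0.0785% lower) or limma-voom (0.0143% higher and 0% lower). At an unadjusted p under 0.05, Ly6c1 was higher (3.4% of all genes) and Sparc lower (3.59% of all genes). Sparc had 28.6, 29.9, 16.2, 15.1 and 21.0 CPM in KO lines, against 24.6, 14.8, 481, 44.1 and 161 CPM in WT lines. WT lines 3 and 5 stood above all others, and its log2 fold change stood at -2.71 ± 0.86 (adjusted p 0.713 by edgeR). Without WT line 3 it was -1.45, and with limma-voom -1.61.

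Ly6c1 had 8.50, 32.9, 103, 4.01 and 10.6 CPM in KO lines, against 1.41, 17.7, 4.35, 1.58 and 0.648 CPM in WT lines. KO line 3 was the highest, and it was also the highest line for Acta2, at 35.2 CPM where the other lines had at most 2.52 CPM. In the same line Fbn1 had 27.9 CPM and Fstl1 41.0 CPM. WT line 3 came next for Fstl1 with 35.8 CPM. Dcn, Lum and Dpt were at 0 in both of these lines, as in all 10 lines, so they do not set these 2 lines apart. WT line 3 was the highest line for Thy1 (0.241 CPM), Postn (0.966 CPM), Lox (0.684 CPM), Pdgfrb (1.69 CPM) and Serpinf1 (1.13 CPM). Pdgfra and Thbs2 were highest in other lines, KO line 1 (4.50 CPM) and WT line 5 (1.51 CPM). Whether fibroblasts remained in any line was not tested.

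The KO effect in tumors was set against that in lines for the 10 members measured in both. In the interaction test of edgeR 0 of 10 passed an adjusted p of 0.05, and neither did any gene tested (0% in either direction). At an unadjusted p under 0.05, Sparc was on the higher side (5.26% of all genes) with a difference of 2.98 ± 0.91 (log2) and an adjusted p of 0.434, and Ly6c1 on the lower side (3% of all genes) with -2.65 ± 1.19 and an adjusted p of 0.577. DESeq2 (0.263% of all genes higher, 0.0965% lower) and limma-voom (0% in either direction) also passed 0 of 10. For Pdgfra, whose lines had 0.844 to 4.50 CPM, the difference was 1.38 ± 0.67 with an adjusted p of 0.607.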

How the data were processed

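Per the labels' protocols, RNA was taken with TRIzol and made into stranded single-end libraries. Per the submitters' processing notes, bcl2fastq (1.9.0), Trim Galore, STAR and build mm10 were used. The deposited values are the authors' raw read counts per gene, with no normalization, and the counting tool, strand setting and annotation are not given in the sources used here. Each table held 53342 genes, and 105 without a symbol stayed in the fits. Library totals were 24547650 to 31118113 counts.

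KO and WT tumors, and KO and WT lines, were fitted apart with edgeR 4.0.16 (filterByExpr, TMM, robust quasi-likelihood, R 4.3.3), with Benjamini-Hochberg adjustment over all genes tested and a threshold of 0.05. Materials and the interaction used all 22 libraries. DESeq2 1.42.0 and limma-voom (limma 3.58.1) were alternatives, as were other factors and filters and leaving out each library. Printed CPM used TMM factors over all 22 libraries. Fits were tested on simulated data. Libraries of a group differed by a chi-square of at least 49.8 per degree of freedom, so none was counted as a repeat.

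The members and lists were chosen with earlier results of these data known. All 32 members are named, up to 4 genes of each further list by the smallest p in tumors, and the summed CPM of each cell type list with its 2 most abundant genes. Gene positions came from GENCODE vM21, and promoters and the microRNA from RefSeq. Promoters were found for 19 members.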

Additional observations from a re-analysis of the deposited data

Results flagged for a closer look

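In 81 tests of a single library against the rest of its group, on log2(CPM + 0.5), 8 values stood apart by Dixon's criterion, where chance gives about 1 in 20. Of these, 5 were low values of KO tumor 2. Pi16 had 3.90 CPM there, against 29.2 to 152 CPM in the other KO tumors, Pdpn 16.9 CPM against 45.8 to 98.8 CPM, and Fstl1 167 CPM against 419 to 695 CPM. Fbn1 had 61.8 CPM there against 167 to 363 CPM, and Postn 47.5 CPM against 118 to 243 CPM. KO tumor 2 also had the lowest macrophage sum of all tumors, at 662 CPM.

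In KO line 4, Ccn2 had 222 CPM against 293 to 327 CPM in the other KO lines, and Tpm2 56.0 CPM against 116 to 143 CPM. In WT line 3, Fstl1 had 35.8 CPM against 0.648 to 1.30 CPM in the other WT lines. No member had every KO library on 1 side of every WT library in tumors (1.12% of all genes higher, 0.789% lower). The same held for the 10 members tested in lines (0.742% of all genes higher, 0.521% lower). An opposite order in tumors and lines was therefore not possible for any member.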

How the results depend on the processing

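The group of 32 members passed in differing numbers by test and library. Members passed in tumors numbered 0 in the main test and in every planned or added alternative except DESeq2 (6) and without KO tumor 2 (2). Leaving out 1 tumor gave 0 to 2 members and 2 to 82 genes in all, with 82 without KO tumor 2 and 57 without WT tumor 2. Genes passed in tumors numbered 2 in the main test, 883 with DESeq2, 4 with limma-voom, 40 with all 22 libraries in 1 fit, 0 without KO tumors 4 and 8 and WT tumor 4, and 1 without KO tumor 5 and WT tumor 4. The last 2 settings were chosen after the data were seen. In lines, 2 genes passed in the main test, 1 with upper quartile factors, 46 with DESeq2, 5 with all 22 libraries, and 0 to 2 with 1 line left out. For the interaction, 67 genes passed with DESeq2 and 0 otherwise. The cause of these differences was not tested.

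Signs turned for members near 0 or carried by 1 library. In tumors, DESeq2 gave -1.10 for Actg2, -1.21 for Cnn1 and -0.86 for Thbs2. Limma-voom gave 0.23 for Ly6c1, -0.42 for Thbs2, -0.015 for Pdgfrb and -0.071 for Acta2. With KO tumors 4 and 8 and WT tumor 4 left out, values were -0.074 for Fbn1, 0.15 for Tpm2, -0.032 for Sparc, -0.47 for Serpinf1, 0.88 for Ly6c1, -0.063 for Fstl1, -0.16 for Lox and -0.19 for Pdgfrb. Ly6c1 was 0.76 without KO tumor 5 and WT tumor 4. Leaving out 1 tumor gave -0.33 to 0.35 for Acta2, -1.09 to 3.08 for Actg2, -1.20 to 2.97 for Cnn1, -2.12 to 0.17 for Des, -0.35 to 0.91 for Ly6c1, -0.40 to 3.76 for Myh11, -0.18 to 1.41 for Myl9, -0.11 to 0.12 for Pdgfrb, -0.082 to 0.42 for Serpinf1, -0.90 to 0.83 for Thbs2 and -0.30 to 0.050 for Tpm2. In lines, limma-voom gave 0.37 for Tpm2 and 0.13 for Mylk. Leaving out 1 line gave -0.52 to 3.66 for Acta2, -0.26 to 0.12 for Ccn2, -0.28 to 0.18 for Emilin1, -0.63 to 3.72 for Fstl1, -0.51 to 0.27 for Mylk, -0.28 to 0.55 for Pdgfra and -0.39 to 0.20 for Tpm2.

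The animal as a replicate block (consensus correlation 0.287, limma-voom) passed 12970 genes and 30 members between tumors and lines, and 0 members in the interaction, where Tpm2 turned to -0.56 (-0.51 without the block). The numbers of KO and WT tumors, or lines, name different animals and pair nothing. Role medians moved by less than the spread between tumors under every setting tried, but the activation median, 0.17, turned to -0.33 with DESeq2, -0.35 with limma-voom, -0.16 without KO tumors 4, 8 and WT tumor 4, and -0.33 to 0.19 with 1 tumor left out. The contractile median turned to -0.33 without KO tumor 5.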

Other observations

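The 5 animals that gave both a tumor and a line allow the members expressed by cancer cells to be set side by side. Ccn2 had 499, 509, 351, 347 and 273 CPM in tumors KO 2, KO 3, WT 1, WT 2 and WT 3, and 313, 304, 190, 303 and 376 CPM in the lines of the same animals. It was higher in the tumor in 4 of 5 pairs, with WT tumor 3 as the exception. For Tpm2 the tumors had 142, 146, 93.1, 138 and 173 CPM and their lines 128, 117, 114, 207 and 11.4 CPM. The lowest Tpm2 line and the highest Tpm2 tumor of these pairs came from the same animal. Sparc had 533 to 1475 CPM in these tumors and 14.8 to 44.1 CPM in their lines.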
